A study of Homo sapiens with 8 samples.

Results

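The genes described here were 38 members of the unfolded protein response and the integrated stress response, chosen by symbol and all matched among the 58884 gene identifiers of the deposited tables. They fall into 14 endoplasmic reticulum (ER) chaperones and folding enzymes, 3 genes of ER-associated degradation, 7 sensors and transcription factors, and 14 targets of the transcription factor ATF4, among them feedback genes of the pathway. RNA sequencing covered 4 established human lines from thyroid cancer and 8 libraries, so that each group had 1 library. The siRNA groups were 8505C cells with an siRNA against NR1D1, 8505C cells with a control siRNA, CAL-62 cells with the NR1D1 siRNA and CAL-62 cells with the control siRNA. The vector groups were TPC-1 cells with an NR1D1 vector, TPC-1 cells with an empty vector, FTC-133 cells with the NR1D1 vector and FTC-133 cells with the empty vector. The control libraries carried the genotype label WT, and no further allele or drug was recorded for any group. As background, 8505C and CAL-62 derive from anaplastic, TPC-1 from papillary and FTC-133 from follicular thyroid carcinoma. The siRNA sequences, the vector backbone, the time of harvest and any cloning or pooling of cells are, in the sources used here, not given.

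The unfolded protein response is switched on when misfolded protein builds up in the ER. The membrane sensors IRE1 (gene ERN1), ATF6 and PERK (gene EIF2AK3) then raise chaperones, folding enzymes and the machinery that exports misfolded protein for destruction. PERK also phosphorylates the translation initiation factor eIF2 alpha, and so do kinases that sense amino acid shortage, heme deficiency and viral RNA; this shared branch, the integrated stress response, favours translation of ATF4, which turns on genes of amino acid import, serine and one-carbon synthesis and feedback control. Thyroid follicular cells are secretory cells that fold large amounts of thyroglobulin in the ER. REV-ERB alpha, the product of NR1D1, is a nuclear receptor that acts as a repressor within the circadian clock. RNA levels do not report XBP1 splicing, ATF6 cleavage or eIF2 alpha phosphorylation, which are how these branches are switched on.

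Promoter sequences are shown for members whose promoters carry the response elements by which these branches are commonly recognised, since the members were described by branch. Of the 38 members, 36 had an entry in the RefSeq promoter table (build GRCh38.p14, 250 bases before to 50 bases after each gene start), and PDIA3 and SHMT2 had none. The motifs were searched on both strands. The ER stress response element (ERSE) was read as CCAAT, then 9 bases of any kind, then CCACG. The second element (ERSE-II) was read as ATTGG, then 1 base of any kind, then CCACG. The unfolded protein response element (UPRE) was read as TGACGTGG, and the C/EBP-ATF response element (CARE) as TGATG, then any base, then AA, then any base. In the sequences below the capitals mark the match, and each is written 5′ to 3′ on the strand of its gene.

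HSPA5, chr9:125241376-125241424, minus strand, ERSE: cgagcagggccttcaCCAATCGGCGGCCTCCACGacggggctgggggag
HSP90B1, chr12:103930201-103930249, plus strand, ERSE: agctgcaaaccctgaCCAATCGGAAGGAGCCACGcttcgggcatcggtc
CANX, chr5:179698763-179698811, plus strand, ERSE: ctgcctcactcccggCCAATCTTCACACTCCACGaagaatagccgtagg
XBP1, chr22:28800588-28800636, minus strand, ERSE: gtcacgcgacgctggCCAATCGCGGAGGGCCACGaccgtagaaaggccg
CRELD2, chr22:49918539-49918587, plus strand, ERSE on the opposite strand: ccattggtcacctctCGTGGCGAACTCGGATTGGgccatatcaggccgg
HERPUD1, chr16:56932010-56932050, plus strand, ERSE-II: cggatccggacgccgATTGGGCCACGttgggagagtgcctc
HERPUD1, chr16:56931950-56931988, plus strand, CARE on the opposite strand: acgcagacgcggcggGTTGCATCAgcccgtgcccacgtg
CHAC1, chr15:40953246-40953284, plus strand, CARE on the opposite strand: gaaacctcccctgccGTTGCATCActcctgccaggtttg
ASNS, chr7:97872453-97872491, minus strand, CARE: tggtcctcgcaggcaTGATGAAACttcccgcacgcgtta

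ERSE occurred in 25 of the 27305 promoters of the table (0.0916%) and in 7 of the 36 members (19.4%). The 7 were HSPA5, HSP90B1, PDIA6, CALR, CANX and CRELD2, which are 6 of the 13 chaperones in the table, and XBP1. No ATF4 target (0 of 13) held it. ERSE-II occurred in 19 promoters (0.0696%) and in 3 members (8.33%), SDF2L1, HYOU1 and HERPUD1. UPRE occurred in 253 promoters (0.927%) and in 1 member, HYOU1, where it overlapped an ERSE-II match. CARE is short and was common, in 1215 promoters (4.45%), and 4 members held it (11.1%): the ATF4 targets CHAC1, ASNS and SLC3A2, and HERPUD1. HERPUD1 was thus the member with both an ERSE-type match and a CARE. The members were chosen as genes of these branches, so their shares beside those of all promoters are a description and were not tested. A match is a run of letters in this window and not a shown binding site, and the absence of one says nothing about a factor.

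**Figure D1:**
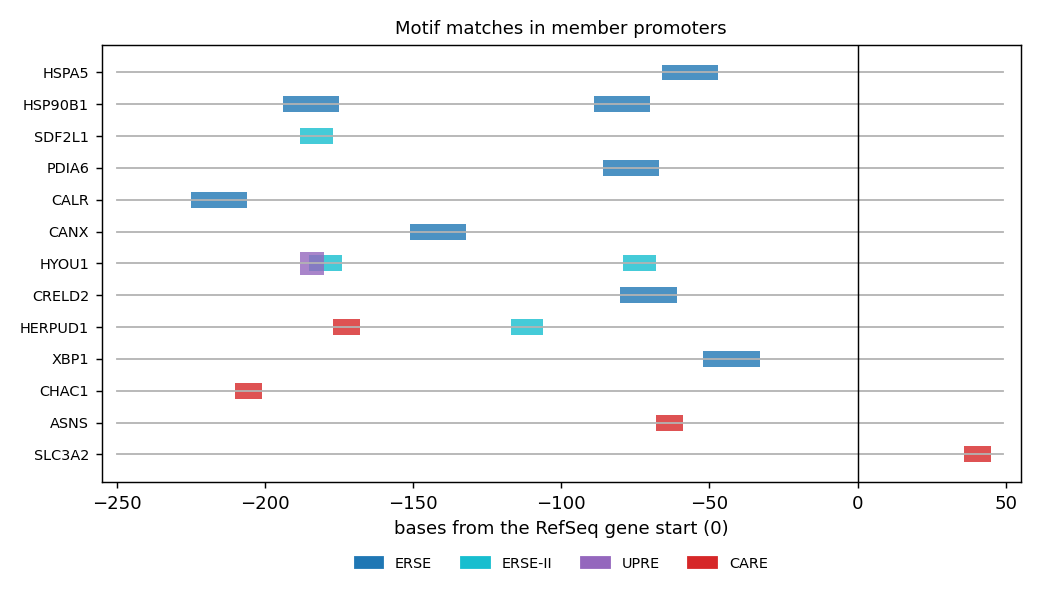
Positions of motif matches in the 13 member promoters that held any, in bases from the RefSeq gene start (x axis), with ERSE, ERSE-II, UPRE and CARE in separate colours. ERSE and ERSE-II matches lie in chaperone genes, HERPUD1 and XBP1, and CARE matches in CHAC1, ASNS, SLC3A2 and HERPUD1.

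Levels are in TPM, the share of a transcript per unit of gene length, with every column brought to a sum of 1000000. The deposited TPC-1 and FTC-133 columns summed to between 253330.3 and 261469.4 and were read as FPKM, so levels of different lines come from tables normalized separately. Recovered totals were 12.86 to 23.18, in units of 1e6 reads per library. NR1D1 itself was 11.2 TPM with NR1D1 siRNA and 18.2 TPM with control siRNA in 8505C, and 10.1 TPM with NR1D1 siRNA and 22.0 TPM with control siRNA in CAL-62. It was 209 TPM with the NR1D1 vector and 190 TPM with the empty vector in TPC-1, and 137 TPM with the NR1D1 vector and 105 TPM with the empty vector in FTC-133. Relative to its control, NR1D1 RNA thus differed less in the vector lines than in the siRNA lines. Mitochondrial transcripts took 67.85% of TPM in the CAL-62 NR1D1 siRNA library and 57.22% in its control siRNA library, against 15.68% to 29.28% in the other 6 libraries. The median gene of CAL-62 had a log2 ratio of -0.28, against 0.05 in 8505C, -0.02 in TPC-1 and 0.05 in FTC-133. The thyroid label was only partly borne out: TG stayed at or under 0.689 TPM and SLC5A5 at or under 0.0463 TPM in all 8 libraries. The thyroid factor PAX8 reached 53.7 to 330 TPM in CAL-62, TPC-1 and FTC-133, and NKX2-1 reached 14.2 to 100 TPM in 8505C and FTC-133. The immune markers PTPRC, CD3E and CD68 stayed at or under 0.326 TPM. The fibroblast collagen COL1A2 was 945 TPM with the NR1D1 vector and 1570.3 TPM with the empty vector in FTC-133. The fibroblast markers LUM (65.7 and 26.8 TPM) and DCN (0.987 and 4.42 TPM) differed in level there, in the same library order. The endothelial cadherin CDH5 was 140 TPM with NR1D1 siRNA and 46.8 TPM with control siRNA in 8505C. There the endothelial markers PECAM1 (5.15 and 2.66 TPM) and VWF (0.374 and 0.0223 TPM) were far lower. The epithelial keratin KRT18 was 48.2 to 923 TPM over the 8 libraries. The epithelial marker EPCAM was at or under 1.84 TPM outside CAL-62.

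ER chaperones stayed within 2-fold in every line, with 0 of 14 past that size in each of the 4. In CAL-62 they came closer to it once mitochondrial genes were left out of the total, where HSP90B1 reached a log2 ratio of 0.95. ATF4 targets were mostly higher with treatment in 8505C (10 of 13 above the mean TPM minimum of 1) and FTC-133 (13 of 14), mostly lower in CAL-62 (11 of 12, and 11 of 14 with mitochondrial genes left out of the total), and mixed in TPC-1 (5 higher, 9 lower). Of all genes, 8728 of 16499 were higher in 8505C and 9042 of 16501 in FTC-133. Most genes were also lower in CAL-62 (10935 of 16230), and 8612 of 16175 were lower in TPC-1. Against the median gene of CAL-62, 10 of the 12 ATF4 targets were lower. The treated library is the one with less NR1D1 in 8505C and CAL-62 and the one with more NR1D1 in TPC-1 and FTC-133, so the similar direction in 8505C and FTC-133 ran opposite by NR1D1. No member passed a test across lines, as given further on. In bulk RNA, fewer cells that express a gene and less of its RNA per cell cannot be told apart.

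Ratios are log2 of treated over control with 1 TPM added to each, and within a line they have no replicate and no test. The chaperone median was 0.16 in 8505C, 0.18 in CAL-62, -0.18 in TPC-1 and -0.02 in FTC-133. The ATF4 target median was 0.49 in 8505C, -0.48 in CAL-62, -0.06 in TPC-1 and 0.52 in FTC-133. ATF4 targets minus chaperones thus came to 0.33, -0.67, 0.13 and 0.54 in that line order. Relative to the median gene, chaperones were at 0.11, 0.46, -0.16 and -0.07, and ATF4 targets at 0.44, -0.20, -0.04 and 0.47. In CAL-62, where the mitochondrial share also differed, leaving the mitochondrial genes out of the total gave 0.59 for chaperones and -0.12 for ATF4 targets. The direction of both medians in CAL-62 held on that scale, on which all 38 members had higher CAL-62 ratios, by 0.08 to 0.65. In the other 3 lines no member moved by more than 0.09 on it.

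**Figure D2:**
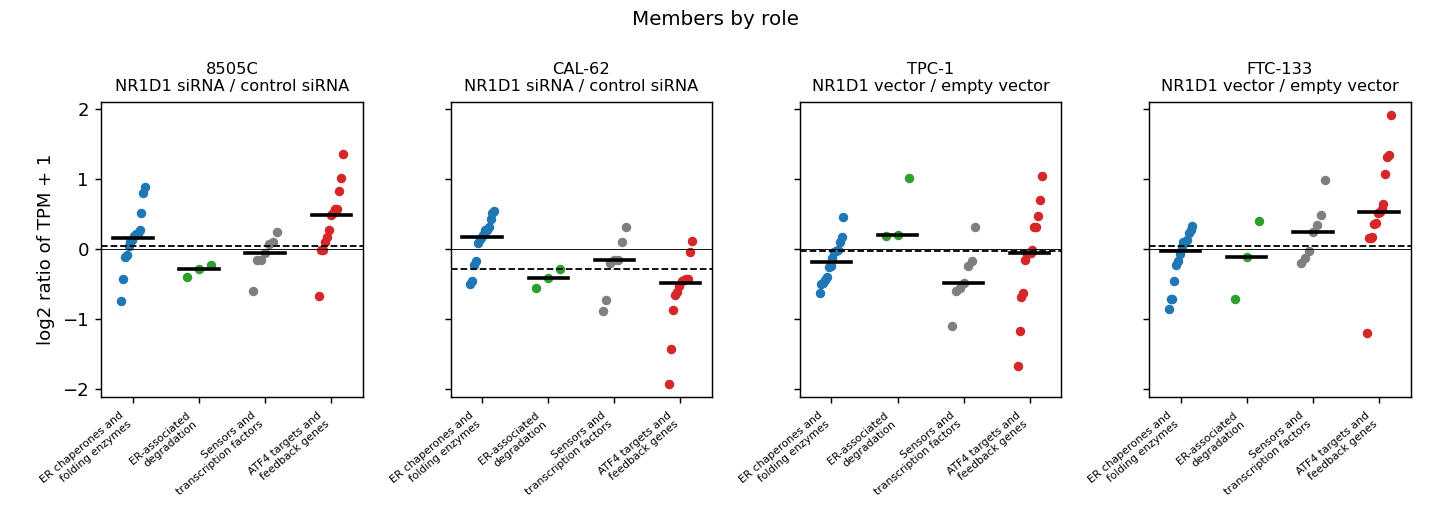
Log2 ratio of TPM + 1, treated over control library, for every member above the mean TPM minimum (points) by role in each line, with the median of each role as a thick bar and the median gene of the line dashed. ATF4 targets reach 1.36 in 8505C and 1.91 in FTC-133 and go down to -1.92 in CAL-62, while no chaperone goes beyond 0.89 or below -0.85.

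Members past 2-fold were counted beside all genes. In 8505C, 2 of 37 members were at least 2-fold higher with NR1D1 siRNA (PHGDH and TRIB3) and 0 were lower, against 11.9% of 16499 genes higher and 5.86% lower. In CAL-62, 0 of 36 members were 2-fold higher and 2 were lower (SHMT2 and MTHFD2), against 5.30% of 16230 genes higher and 10.7% lower. In TPC-1, 2 of 38 members were 2-fold higher with the NR1D1 vector (HERPUD1 and DDIT4) and 3 were lower (DDIT3, PPP1R15A and STC2), against 6.28% of 16175 genes higher and 5.25% lower. In FTC-133, 4 of 38 members were 2-fold higher (PHGDH, TRIB3, DDIT4 and SLC7A5) and 1 was lower (STC2), against 9.76% of 16501 genes higher and 6.91% lower. The members that did not reach the mean TPM minimum were ASNS in 8505C and in CAL-62, and VLDLR in CAL-62. Apart from HERPUD1 and DDIT3, every member past 2-fold was in the list of ATF4 targets. Of that list, 2 of 13 were 2-fold higher in 8505C and 2 of 12 lower in CAL-62, beside 11.9% and 10.7% of all genes. In TPC-1, 1 of 14 was higher and 2 were lower, beside 6.28% and 5.25%. In FTC-133, 4 of 14 were higher and 1 was lower, beside 9.76% and 6.91%. These shares rest on few genes and were not tested.

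**Figure D3:**
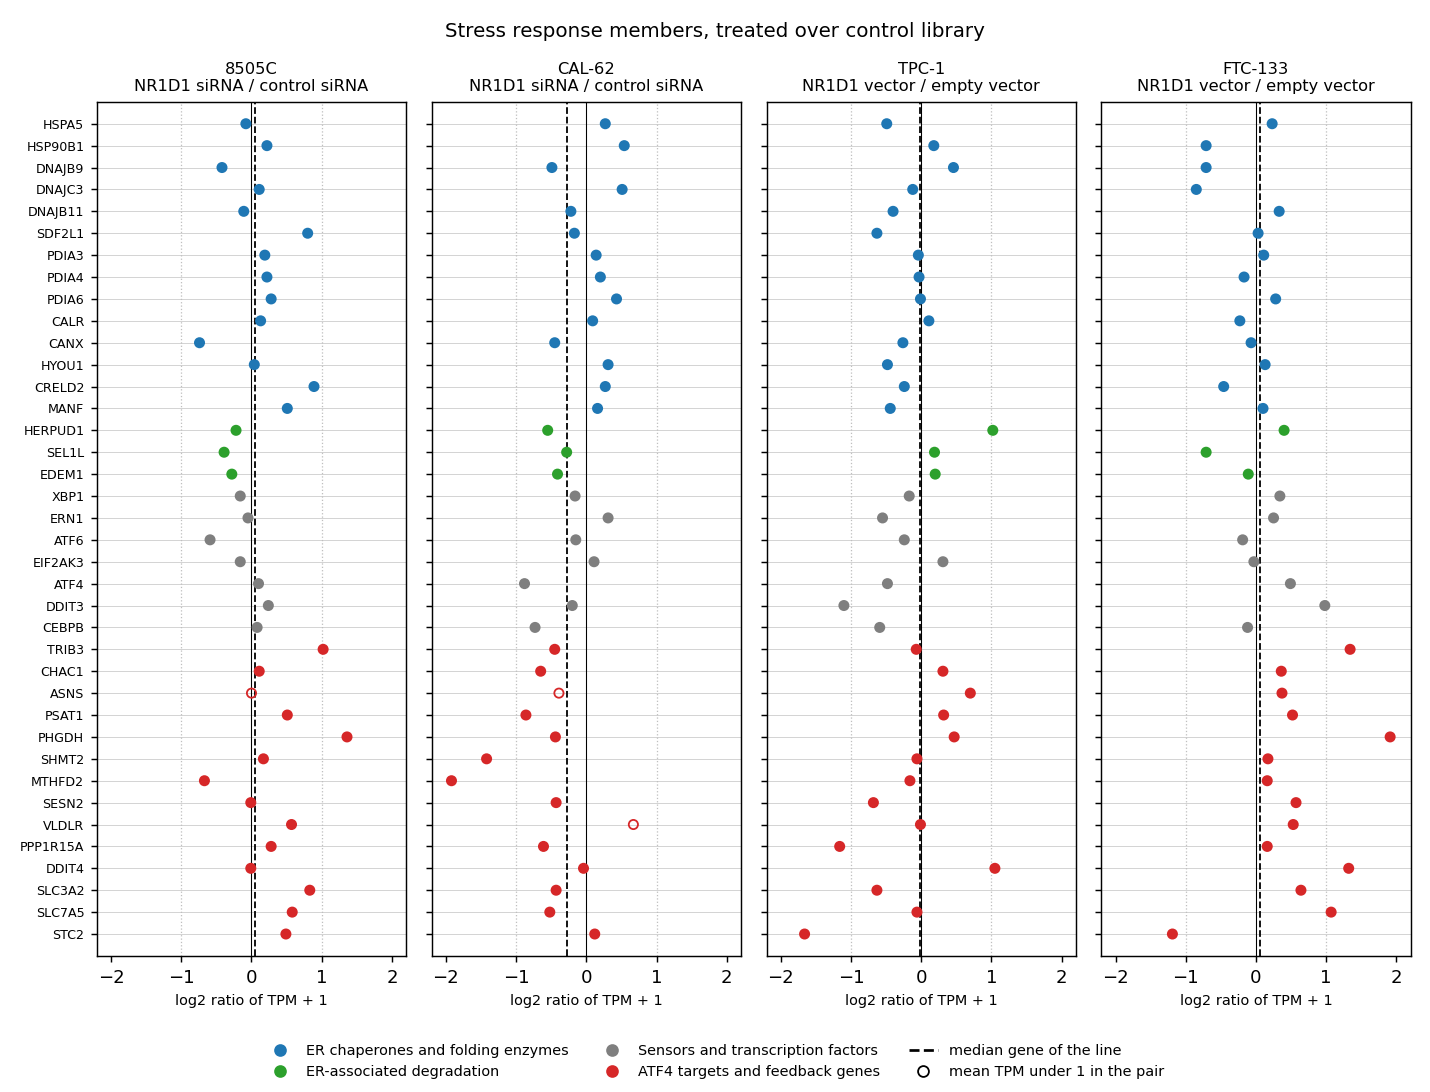
Log2 ratio of TPM + 1, treated over control library (x axis), for all 38 members (rows, coloured by role) in the 4 lines, with the median gene of each line dashed and open points for members under a mean TPM of 1. PHGDH stands at 1.36 in 8505C and 1.91 in FTC-133, MTHFD2 at -1.92 in CAL-62 and STC2 at -1.66 in TPC-1.

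Among the serine and one-carbon enzymes were the highest ratio of a member, 1.91 for PHGDH in FTC-133, and the lowest, -1.92 for MTHFD2 in CAL-62. PHGDH catalyses the entry step of serine synthesis from a glycolytic intermediate. It had 14.2 TPM with NR1D1 siRNA and 4.95 TPM with control siRNA in 8505C, and 5.62 TPM with NR1D1 siRNA and 8.0 TPM with control siRNA in CAL-62. It had 27.4 TPM with the NR1D1 vector and 19.5 TPM with the empty vector in TPC-1, and 37.5 TPM with the NR1D1 vector and 9.25 TPM with the empty vector in FTC-133. PHGDH was higher in the treated library of 3 lines and lower in CAL-62. The log2 ratios were 1.36, -0.44, 0.47 and 1.91, and the FTC-133 ratio corresponds to 4.06-fold on 1423 reads with the NR1D1 vector and 369 reads with the empty vector. PSAT1, the next enzyme of serine synthesis, followed the same signs. Its levels were 134 TPM with NR1D1 siRNA and 94.0 TPM with control siRNA in 8505C, and 21.6 TPM with NR1D1 siRNA and 40.2 TPM with control siRNA in CAL-62. They were 218 TPM with the NR1D1 vector and 174 TPM with the empty vector in TPC-1, and 284 TPM with the NR1D1 vector and 198 TPM with the empty vector in FTC-133. The log2 ratios of PSAT1 were 0.51, -0.86, 0.32 and 0.52. Without mitochondrial genes the CAL-62 ratios became -0.09 for PHGDH and -0.48 for PSAT1.

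MTHFD2 and SHMT2 are the mitochondrial enzymes that draw one-carbon units from serine. MTHFD2 (ENSG00000065911, chr2:74198562-74217565, plus strand) had 55.1 TPM with NR1D1 siRNA and 88.1 TPM with control siRNA in 8505C, and 12.6 TPM with NR1D1 siRNA and 50.5 TPM with control siRNA in CAL-62. It had 117 TPM with the NR1D1 vector and 131 TPM with the empty vector in TPC-1, and 207 TPM with the NR1D1 vector and 185 TPM with the empty vector in FTC-133. MTHFD2 was lower with NR1D1 siRNA in both siRNA lines and close to its control in both vector lines. The siRNA comparison gave a mean log2 change of -1.29 (SE 0.36, limma unadjusted p = 0.0101, Benjamini-Hochberg adjusted p = 0.293), so it did not pass. With CAL-62 left out the change was -0.67 and with 8505C left out it was -1.92. SHMT2 had 62.9 TPM with NR1D1 siRNA and 55.6 TPM with control siRNA in 8505C, and 20.7 TPM with NR1D1 siRNA and 57.0 TPM with control siRNA in CAL-62. Its vector levels were 132 TPM with the NR1D1 vector and 137 TPM with the empty vector in TPC-1, and 158 TPM with the NR1D1 vector and 140 TPM with the empty vector in FTC-133. SHMT2 was therefore more than 2-fold below its control in CAL-62 only, with a log2 ratio of -1.42 that became -1.04 when mitochondrial genes were left out of the total. On that scale the SHMT2 control level was 133 in CAL-62 and 78.7 in 8505C. MTHFD2 in CAL-62 became -1.57 on that scale.

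Both transporter subunits described next were higher in 8505C and lower in CAL-62. Without mitochondrial genes the CAL-62 ratios shrank to -0.12 for SLC7A5 and -0.03 for SLC3A2. SLC7A5 (LAT1) and SLC3A2 (its heavy chain) form a transporter for large neutral amino acids. SLC7A5 had 52.6 TPM with NR1D1 siRNA and 35.0 TPM with control siRNA in 8505C, and 34.5 TPM with NR1D1 siRNA and 49.9 TPM with control siRNA in CAL-62. It had 610 TPM with the NR1D1 vector and 634 TPM with the empty vector in TPC-1, and 89.4 TPM with the NR1D1 vector and 41.9 TPM with the empty vector in FTC-133. Both TPC-1 libraries thus stood far above the other 6, and the log2 ratios were 0.58, -0.52, -0.06 and 1.07. SLC3A2 had 104 TPM with NR1D1 siRNA and 58.2 TPM with control siRNA in 8505C, and 32.1 TPM with NR1D1 siRNA and 43.6 TPM with control siRNA in CAL-62. It had 268 TPM with the NR1D1 vector and 415 TPM with the empty vector in TPC-1, and 191 TPM with the NR1D1 vector and 123 TPM with the empty vector in FTC-133. The log2 ratios of SLC3A2 were 0.83, -0.43, -0.63 and 0.64, so the heavy chain was lower in TPC-1 while LAT1 was nearly level there. ASNS, asparagine synthetase, rested on 9 to 86 reads per library. It was 0.477 TPM with NR1D1 siRNA and 0.473 TPM with control siRNA in 8505C, and 0.629 TPM with NR1D1 siRNA and 1.14 TPM with control siRNA in CAL-62. It was 1.63 TPM with the NR1D1 vector and 0.627 TPM with the empty vector in TPC-1, and 4.66 TPM with the NR1D1 vector and 3.4 TPM with the empty vector in FTC-133. In GENCODE 29, 44.6% of the ASNS exonic bases also belong to AC079781.5 on the same strand, so reads may be missing from its values.

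TRIB3, a pseudokinase that restrains ATF4, was like PHGDH higher in 8505C and FTC-133. It had 93.8 TPM with NR1D1 siRNA and 45.6 TPM with control siRNA in 8505C, and 11.5 TPM with NR1D1 siRNA and 16.0 TPM with control siRNA in CAL-62. It had 64.3 TPM with the NR1D1 vector and 67.6 TPM with the empty vector in TPC-1, and 124 TPM with the NR1D1 vector and 48.4 TPM with the empty vector in FTC-133. The log2 ratios were 1.02, -0.45, -0.07 and 1.34, and the CAL-62 ratio became -0.06 without mitochondrial genes. CHAC1, which degrades glutathione, had log2 ratios of 0.11, -0.65, 0.31 and 0.36. CHAC1 rested on 18 reads with NR1D1 siRNA and 43 reads with control siRNA in CAL-62, where the 95% counting interval of the ratio ran from -1.84 to -0.14. It had 7.39 TPM with NR1D1 siRNA and 6.78 TPM with control siRNA in 8505C, and 1.5 TPM with NR1D1 siRNA and 2.92 TPM with control siRNA in CAL-62. Its vector levels were 5.89 TPM with the NR1D1 vector and 4.57 TPM with the empty vector in TPC-1, and 16.2 TPM with the NR1D1 vector and 12.4 TPM with the empty vector in FTC-133. The counting interval in TPC-1 (-0.16 to 0.90) covered 0, and these intervals cover counting error only.

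PPP1R15A (GADD34), the phosphatase subunit that reverses eIF2 alpha phosphorylation, was lowest relative to its control in TPC-1. It had 334 TPM with the NR1D1 vector and 746 TPM with the empty vector in TPC-1, and 225 TPM with the NR1D1 vector and 202 TPM with the empty vector in FTC-133. It had 108 TPM with NR1D1 siRNA and 89.2 TPM with control siRNA in 8505C, and 32.4 TPM with NR1D1 siRNA and 50.0 TPM with control siRNA in CAL-62. The log2 ratio in TPC-1 was -1.16, and the other 3 lines lay between -0.61 and 0.28. SESN2, a sestrin that restrains mTORC1 when leucine is short, had 58.3 TPM with the NR1D1 vector and 94.3 TPM with the empty vector in TPC-1, and 36.1 TPM with the NR1D1 vector and 24 TPM with the empty vector in FTC-133. In the siRNA lines it had 13.4 TPM with NR1D1 siRNA and 13.5 TPM with control siRNA in 8505C, and 3.31 TPM with NR1D1 siRNA and 4.83 TPM with control siRNA in CAL-62. Its log2 ratios were -0.01 in 8505C, -0.43 in CAL-62, -0.68 in TPC-1 and 0.57 in FTC-133. In CAL-62 without mitochondrial genes, PPP1R15A became -0.21 and SESN2 -0.12. VLDLR, a lipoprotein receptor that ATF4 can raise under ER stress, was higher in both siRNA lines. It had 50.8 TPM with NR1D1 siRNA and 33.9 TPM with control siRNA in 8505C, and 1.2 TPM with NR1D1 siRNA and 0.385 TPM with control siRNA in CAL-62. In the vector lines it had 16.4 TPM with the NR1D1 vector and 16.5 TPM with the empty vector in TPC-1, and 14.8 TPM with the NR1D1 vector and 9.96 TPM with the empty vector in FTC-133. The siRNA comparison gave 0.62 for VLDLR (SE 0.29, limma adjusted p = 0.455), and the CAL-62 values rested on 66 and 26 reads.

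DDIT4 and STC2 were the ATF4 targets past 2-fold in both vector lines, with DDIT4 higher and STC2 lower. DDIT4 (REDD1, an inhibitor of mTORC1; ENSG00000168209, chr10:72273920-72276036, plus strand) had 319 TPM with the NR1D1 vector and 153 TPM with the empty vector in TPC-1, and 458 TPM with the NR1D1 vector and 183 TPM with the empty vector in FTC-133. It had 45.6 TPM with NR1D1 siRNA and 46.0 TPM with control siRNA in 8505C, and 3.66 TPM with NR1D1 siRNA and 3.8 TPM with control siRNA in CAL-62. Both NR1D1 vector libraries were above both empty vector libraries, while the siRNA pairs were level; in CAL-62 the ratio of -0.04 became 0.33 without mitochondrial genes. The vector comparison gave 1.18 (SE 0.26, limma unadjusted p = 0.0032, adjusted p = 0.639). The siRNA effect, turned to point towards more NR1D1, minus the vector effect was -1.16 (SE 0.37, limma unadjusted p = 0.0179, adjusted p = 0.468). STC2, stanniocalcin-2, is a secreted glycoprotein induced by PERK and ATF4 (ENSG00000113739, chr5:173314713-173329503, minus strand). It had 13.3 TPM with the NR1D1 vector and 44.1 TPM with the empty vector in TPC-1, and 142 TPM with the NR1D1 vector and 325 TPM with the empty vector in FTC-133. It had 111 TPM with NR1D1 siRNA and 78.8 TPM with control siRNA in 8505C, and 10.7 TPM with NR1D1 siRNA and 9.75 TPM with control siRNA in CAL-62. STC2 was lower with the NR1D1 vector in both vector lines, and its groups overlapped across lines because FTC-133 began far higher. The vector comparison gave -1.42 (SE 0.28, limma unadjusted p = 0.00182, adjusted p = 0.533). Across the 4 lines, the library with more NR1D1 minus the library with less gave -0.86 for STC2 (SE 0.29, limma unadjusted p = 0.019, adjusted p = 0.938). DDIT4 and STC2 are both counted among ATF4 targets, and they lay on opposite sides in the vector lines.

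**Figure D4:**
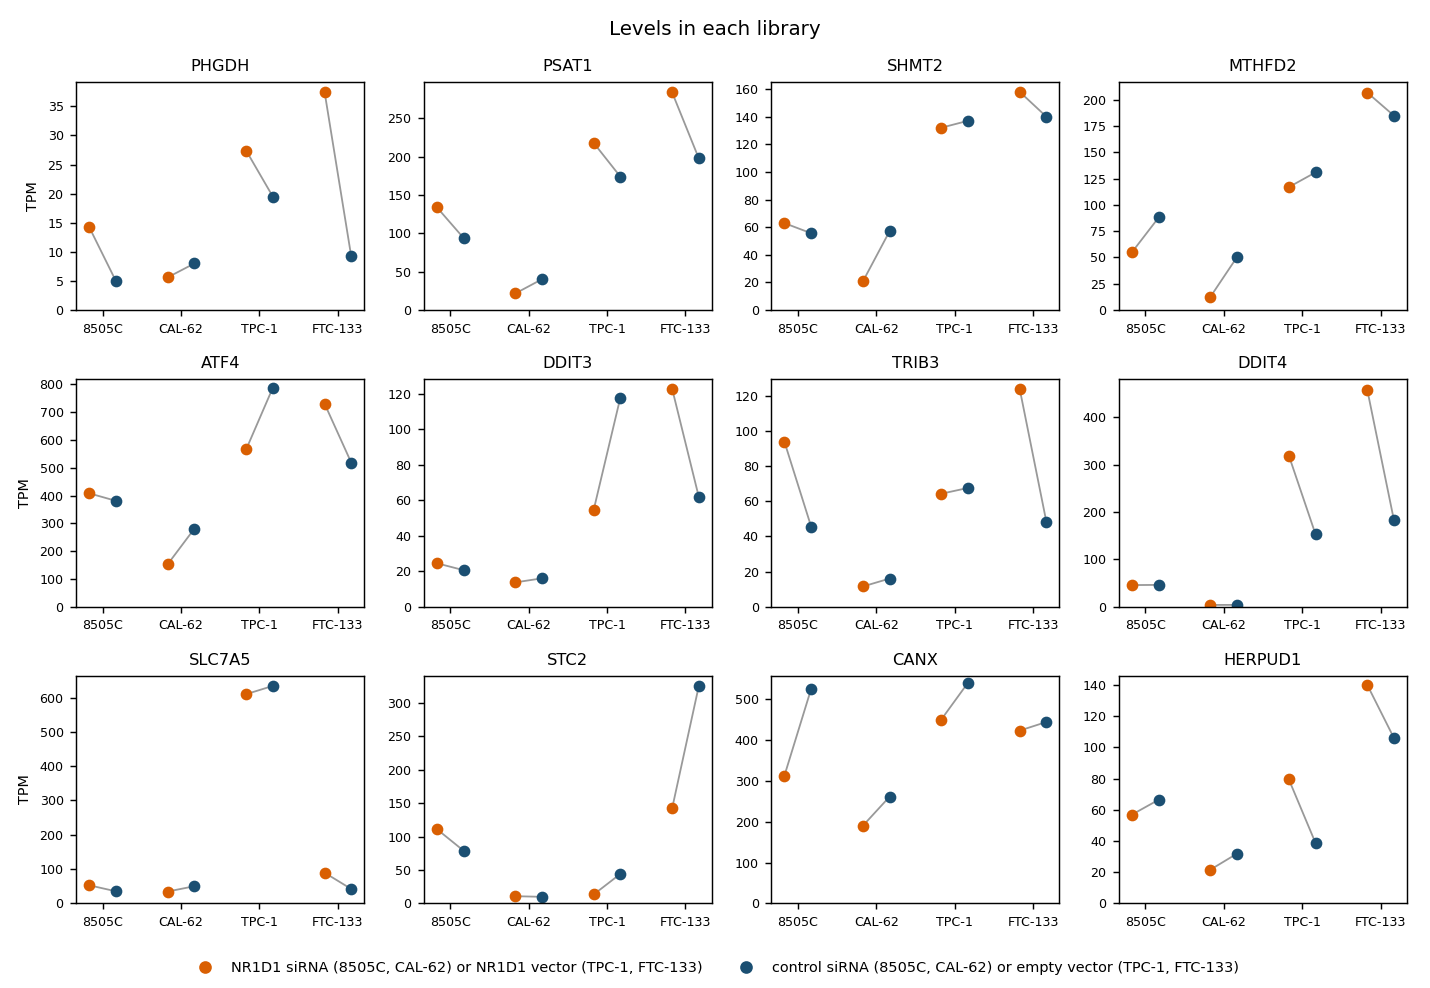
TPM (y axis, from 0, a separate scale for each gene) of 12 members in each of the 8 libraries, with the treated library left of the control library of its line and a line joining the pair. DDIT4 is at 319 and 458 TPM with the NR1D1 vector against 153 and 183 TPM with the empty vector, and MTHFD2 is at 12.6 TPM in CAL-62 with NR1D1 siRNA against 50.5 TPM with control siRNA.

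Among the transcription factors, the ATF4 ratio had the same sign as the median of its targets in each line. In TPC-1, however, that median was only -0.06, with 5 targets higher and 9 lower. In 8505C the ATF4 ratio was only 0.10, beside a median gene of 0.05. ATF4 had 408 TPM with NR1D1 siRNA and 381 TPM with control siRNA in 8505C, and 153 TPM with NR1D1 siRNA and 281 TPM with control siRNA in CAL-62. It had 566 TPM with the NR1D1 vector and 788 TPM with the empty vector in TPC-1, and 731 TPM with the NR1D1 vector and 519 TPM with the empty vector in FTC-133. The log2 ratios of ATF4 were 0.10, -0.88, -0.48 and 0.49, beside target medians of 0.49, -0.48, -0.06 and 0.52; with 4 lines this is a description and no relation was tested. DDIT3 (CHOP), the pro-apoptotic factor downstream of ATF4, had 24.5 TPM with NR1D1 siRNA and 20.6 TPM with control siRNA in 8505C, and 13.7 TPM with NR1D1 siRNA and 16.0 TPM with control siRNA in CAL-62. It had 54.7 TPM with the NR1D1 vector and 118 TPM with the empty vector in TPC-1, and 123 TPM with the NR1D1 vector and 62.0 TPM with the empty vector in FTC-133. DDIT3 was thus more than 2-fold lower in TPC-1, at -1.10, and just under 2-fold higher in FTC-133, at 0.98. The siRNA ratio of DDIT3 was 0.24 in 8505C, and in CAL-62 it was -0.20, or 0.19 without mitochondrial genes. MARS shares 27.2% of DDIT3 exonic bases on the opposite strand, and whether counting used strand was not given. MARS had 108 TPM with the NR1D1 vector and 145 TPM with the empty vector in TPC-1, and 166 TPM with the NR1D1 vector and 113 TPM with the empty vector in FTC-133. MARS lay on the same side as DDIT3 in both vector lines, and its part in the DDIT3 values was not tested.

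CEBPB, a basic leucine zipper factor that partners ATF4 and CHOP, had 111 TPM with NR1D1 siRNA and 105 TPM with control siRNA in 8505C, and 11.2 TPM with NR1D1 siRNA and 19.2 TPM with control siRNA in CAL-62. It had 89.6 TPM with the NR1D1 vector and 135 TPM with the empty vector in TPC-1, and 408 TPM with the NR1D1 vector and 442 TPM with the empty vector in FTC-133. It was lower in CAL-62 and TPC-1, at -0.73 and -0.59, and near level in 8505C and FTC-133. The CAL-62 ratio of CEBPB became -0.36 without mitochondrial genes. XBP1, the factor that IRE1 splices, had 125 TPM with NR1D1 siRNA and 140 TPM with control siRNA in 8505C, and 52.6 TPM with NR1D1 siRNA and 58.7 TPM with control siRNA in CAL-62. It had 146 TPM with the NR1D1 vector and 165 TPM with the empty vector in TPC-1, and 242 TPM with the NR1D1 vector and 191 TPM with the empty vector in FTC-133. No XBP1 ratio exceeded 0.34 in size, and the CAL-62 ratio of -0.16 became 0.25 without mitochondrial genes.

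The 3 sensors stayed within 2-fold in every line. ATF6 had 40.9 TPM with NR1D1 siRNA and 62.3 TPM with control siRNA in 8505C, and 27.6 TPM with NR1D1 siRNA and 30.8 TPM with control siRNA in CAL-62. It had 73.9 TPM with the NR1D1 vector and 87.4 TPM with the empty vector in TPC-1, and 32.6 TPM with the NR1D1 vector and 37.4 TPM with the empty vector in FTC-133. Its log2 ratios of -0.59, -0.15, -0.24 and -0.19 were below 0 in every line, although the CAL-62 ratio became 0.25 without mitochondrial genes. ERN1 (IRE1) had 6.28 TPM with NR1D1 siRNA and 6.55 TPM with control siRNA in 8505C, and 2.22 TPM with NR1D1 siRNA and 1.59 TPM with control siRNA in CAL-62. It had 9.65 TPM with the NR1D1 vector and 14.6 TPM with the empty vector in TPC-1, and 7.98 TPM with the NR1D1 vector and 6.57 TPM with the empty vector in FTC-133. The log2 ratios of ERN1 lay between -0.55 in TPC-1 and 0.31 in CAL-62, and the CAL-62 ratio became 0.75 without mitochondrial genes. EIF2AK3 (PERK) had 11.6 TPM with NR1D1 siRNA and 13.1 TPM with control siRNA in 8505C, and 18.7 TPM with NR1D1 siRNA and 17.3 TPM with control siRNA in CAL-62. It had 12.0 TPM with the NR1D1 vector and 9.44 TPM with the empty vector in TPC-1, and 11.9 TPM with the NR1D1 vector and 12.2 TPM with the empty vector in FTC-133. EIF2AK3 ratios lay between -0.16 and 0.31, and 3 of their 4 counting intervals covered 0. The CAL-62 ratio of EIF2AK3, 0.11, became 0.51 without mitochondrial genes.

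ER chaperones were among the most abundant members. HSPA5 (BiP), the ER chaperone that also holds the sensors inactive, had 1242.7 TPM with NR1D1 siRNA and 1315 TPM with control siRNA in 8505C, and 832 TPM with NR1D1 siRNA and 691 TPM with control siRNA in CAL-62. It had 904 TPM with the NR1D1 vector and 1269.1 TPM with the empty vector in TPC-1, and 2214.6 TPM with the NR1D1 vector and 1886.6 TPM with the empty vector in FTC-133. HSPA5 was lower in TPC-1, at -0.49, and its other ratios lay between -0.08 and 0.27. HSP90B1 (GRP94), the ER member of the HSP90 family, ranged from 268 to 790 TPM over the libraries and had log2 ratios of 0.22, 0.54, 0.18 and -0.71. HYOU1, a nucleotide exchange factor of BiP, ranged from 54.5 to 127 TPM and had 0.04, 0.31, -0.48 and 0.13. HSPA5 and HYOU1 were thus both lower in TPC-1, while HSP90B1 was lower in FTC-133. Without mitochondrial genes the CAL-62 ratios became 0.68 for HSPA5, 0.95 for HSP90B1 and 0.72 for HYOU1.

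The J-domain cochaperones of BiP split among themselves. DNAJB9 (ERdj4) had 30.3 TPM with NR1D1 siRNA and 41.1 TPM with control siRNA in 8505C, and 26.1 TPM with NR1D1 siRNA and 36.9 TPM with control siRNA in CAL-62. It had 22.9 TPM with the NR1D1 vector and 16.5 TPM with the empty vector in TPC-1, and 50.1 TPM with the NR1D1 vector and 82.4 TPM with the empty vector in FTC-133. Its log2 ratios were -0.42, -0.49, 0.46 and -0.71, and the CAL-62 ratio became -0.09 without mitochondrial genes. DNAJC3 (p58IPK), at 27.6 to 58.7 TPM, had 0.11, 0.51, -0.12 and -0.85. DNAJB11 (ERdj3), at 25.5 to 47.8 TPM, had -0.11, -0.22, -0.40 and 0.33. SDF2L1, which works beside DNAJB11, had 14.5 TPM with NR1D1 siRNA and 7.87 TPM with control siRNA in 8505C, on 82 and 37 reads, and 3.88 TPM with NR1D1 siRNA and 4.47 TPM with control siRNA in CAL-62, on 25 and 35 reads. It had 27.8 TPM with the NR1D1 vector and 43.5 TPM with the empty vector in TPC-1, and 60.8 TPM with the NR1D1 vector and 59.5 TPM with the empty vector in FTC-133. SDF2L1 was higher in 8505C, at 0.80 with a counting interval of 0.32 to 1.5, and lower in TPC-1, at -0.63. In CAL-62 without mitochondrial genes, DNAJC3 became 0.93, DNAJB11 became 0.18 and SDF2L1 became 0.19.

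The disulfide isomerases stayed within 2-fold in every line. PDIA3 (ERp57), which joins calnexin and calreticulin in glycoprotein folding, stood at 320 to 860 TPM and had log2 ratios of 0.19, 0.14, -0.04 and 0.11. PDIA4, at 116 to 1317.1 TPM, had 0.22, 0.20, -0.03 and -0.17, and PDIA6, at 93.4 to 318 TPM, had 0.28, 0.43, -0.01 and 0.28. CALR (calreticulin), the soluble lectin chaperone, was the most abundant member in 7 of the 8 libraries at 805 to 2600.1 TPM, and had 0.13, 0.09, 0.11 and -0.23. Without mitochondrial genes the CAL-62 ratios became 0.55 for PDIA3, 0.62 for PDIA4, 0.84 for PDIA6 and 0.50 for CALR. The membrane-bound relative of CALR, CANX (calnexin; ENSG00000127022, chr5:179678628-179730925, plus strand), differed from it in the siRNA lines. CANX had 313 TPM with NR1D1 siRNA and 525 TPM with control siRNA in 8505C, and 190 TPM with NR1D1 siRNA and 261 TPM with control siRNA in CAL-62. It had 450 TPM with the NR1D1 vector and 540 TPM with the empty vector in TPC-1, and 423 TPM with the NR1D1 vector and 444 TPM with the empty vector in FTC-133. CANX was lower in the treated library of every line, at -0.74, -0.45, -0.26 and -0.07, and in CAL-62 the ratio shrank to -0.04 without mitochondrial genes. The siRNA comparison gave -0.60 for CANX (SE 0.28, limma adjusted p = 0.45). CRELD2 and MANF are secreted proteins induced by ER stress. CRELD2 had 15.2 TPM with NR1D1 siRNA and 7.76 TPM with control siRNA in 8505C, and 9.7 TPM with NR1D1 siRNA and 7.87 TPM with control siRNA in CAL-62. It had 10.5 TPM with the NR1D1 vector and 12.5 TPM with the empty vector in TPC-1, and 20.3 TPM with the NR1D1 vector and 28.3 TPM with the empty vector in FTC-133. CRELD2 was higher with NR1D1 siRNA in both siRNA lines and lower with the NR1D1 vector in both vector lines, at 0.89, 0.27, -0.24 and -0.46. Across the 4 lines the library with more NR1D1 minus the library with less gave -0.47 for CRELD2 (SE 0.22, limma unadjusted p = 0.068, adjusted p = 0.938). MANF, at 19.6 to 152 TPM, had 0.51, 0.16, -0.44 and 0.10. In CAL-62 without mitochondrial genes, CRELD2 became 0.68 and MANF 0.57.

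The 6 chaperones with an ERSE in the sequences and counts above did not share a direction. HSPA5, HSP90B1, PDIA6, CALR, CANX and CRELD2 had 8505C ratios between -0.74 and 0.89 and FTC-133 ratios between -0.71 and 0.28. Their TPC-1 ratios lay between -0.49 and 0.18. In CAL-62 all but CANX (-0.45) were above 0, up to 0.54. Without mitochondrial genes CANX was at -0.04 there and the others at 0.50 to 0.95.

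The 3 degradation genes were lower in both siRNA lines, although SEL1L in CAL-62 was above 0 on other scales. HERPUD1, a membrane component of the HRD1 ubiquitin ligase complex (ENSG00000051108, chr16:56932048-56944863, plus strand), had 56.9 TPM with NR1D1 siRNA and 66.4 TPM with control siRNA in 8505C, and 21.6 TPM with NR1D1 siRNA and 31.9 TPM with control siRNA in CAL-62. It had 79.4 TPM with the NR1D1 vector and 38.7 TPM with the empty vector in TPC-1, and 140 TPM with the NR1D1 vector and 106 TPM with the empty vector in FTC-133. HERPUD1 was lower in both NR1D1 siRNA libraries and higher in both NR1D1 vector libraries than in their controls, so it had more RNA in the library with more NR1D1 in 4 of 4 lines. That 4-line difference was 0.55 (SE 0.22, limma unadjusted p = 0.0393, adjusted p = 0.938), and with TPC-1 left out it was 0.39. DDIT4 was ordered the same way in all 4 lines, with siRNA ratios of only -0.01 and -0.04. STC2, CRELD2, DNAJC3 and PDIA4 had less RNA in the library with more NR1D1 in all 4 lines. On other scales DDIT4 changed sign in CAL-62 and PDIA4 in TPC-1. The share of all genes ordered by NR1D1 in all 4 lines was not counted. In the vector lines this order rests on close NR1D1 levels. NR1D1 was at 209 TPM with its vector and 190 TPM with the empty vector in TPC-1, and at 137 and 105 TPM in FTC-133. The vector comparison gave 0.71 for HERPUD1 (SE 0.29, limma unadjusted p = 0.0468, adjusted p = 1), 1.02 in TPC-1 and 0.40 in FTC-133. SEL1L, the adaptor of HRD1, stood at 16.1 to 114 TPM and had log2 ratios of -0.39, -0.28, 0.19 and -0.71. EDEM1, which hands misfolded glycoproteins to that complex, stood at 47.2 to 93.4 TPM and had -0.28, -0.41, 0.20 and -0.11. Without mitochondrial genes the CAL-62 ratios became -0.15 for HERPUD1, 0.11 for SEL1L and -0.01 for EDEM1.

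The tests across lines called no member. limma was fitted to 17595 genes with lines as observations, with Benjamini-Hochberg adjustment over all of them. In the siRNA comparison, 0 of 38 members passed an adjusted p of 0.05, as did 0% of all genes, and 1 member (2.63%), MTHFD2, had an unadjusted p under 0.05, against 12.0% of all genes. In the vector comparison, 0 of 38 members passed, and 3 (7.89%), STC2, DDIT4 and HERPUD1, had an unadjusted p under 0.05, against 4.46% of all genes. In the 4-line comparison, 0 passed, and 2 (5.26%), STC2 and HERPUD1, had an unadjusted p under 0.05, against 4.09% of all genes. In the comparison of siRNA with vector effects, 0 passed, and 3 (7.89%), DDIT4, STC2 and MTHFD2, had an unadjusted p under 0.05, against 9.39% of all genes. Approach and line cannot be told apart there, because no line received both. The smallest adjusted p of a member was 0.293 for MTHFD2 in the siRNA comparison, 0.533 for STC2 in the vector comparison and 0.468 for DDIT4 in the comparison of effects. The smallest adjusted p of any gene was 0.166, 0.272, 0.731 and 0.344 in the siRNA, vector, 4-line and effect comparisons, so no gene passed in a design with 2 or 3 residual degrees of freedom.

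The lines of an approach were compared by sign. Between 8505C and CAL-62, 12 of 14 chaperones had the same sign, as did 4 of 12 ATF4 targets. Over all members the share was 21 of 36 (58.3%), against 63.4% of 13742 genes. ATF4 targets with opposite ratios of at least 0.3 in size numbered 5 of 12 between 8505C and CAL-62: TRIB3, PSAT1, PHGDH, SLC3A2 and SLC7A5. Over all genes the share was 11.4%. Without mitochondrial genes PSAT1 was the only 1 of these 5 still at least 0.3 below 0 in CAL-62 (-0.48), and the others were at -0.12 to -0.03. Between TPC-1 and FTC-133, 4 of 14 chaperones and 6 of 14 ATF4 targets had the same sign. Over all members that share was 13 of 38 (34.2%), against 44.3% of 13473 genes. Ratios had 1 sign in all 4 lines for 2 of 36 members (5.56%), CANX and ATF6, against 17.5% of 11773 genes.

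Control levels differed widely between lines. CAL-62 had the lowest control level for 27 of 38 members and FTC-133 the highest for 20 of 38. With mitochondrial genes left out of each total, CAL-62 was lowest for 13 members, TPC-1 for 12, 8505C for 9 and FTC-133 for 4, while FTC-133 was still highest for 19. The median chaperone control level was 155 TPM in 8505C, 74.0 TPM in CAL-62, 122 TPM in TPC-1 and 184 TPM in FTC-133. Without mitochondrial genes it was 218 in 8505C, 173 in CAL-62, 148 in TPC-1 and 223 in FTC-133, so that TPC-1 and not CAL-62 was lowest. The median ATF4 target was at 45.8, 12.9, 113 and 85.7 TPM in the same lines. Without mitochondrial genes these ATF4 target medians were 64.8, 30.1, 136 and 104, so CAL-62 stayed lowest and TPC-1 highest on both scales. These levels come from separately normalized tables with 1 control library each, and no test was made.

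VLDLR was 33.9 TPM in 8505C control cells and 0.385 TPM in CAL-62 control cells, an 87.9-fold span and the widest of the 38. DDIT4 spanned 48.3-fold, STC2 33.3-fold and CEBPB 23.0-fold, each with FTC-133 highest and CAL-62 lowest. Without mitochondrial genes these spans were 53.2-fold for VLDLR, 25.0-fold for DDIT4, 17.2-fold for STC2 and 11.9-fold for CEBPB, between the same lines. TPC-1 control cells stood out for feedback and transport genes. PPP1R15A was at 746 TPM in TPC-1, against 50.0 to 202 TPM in the other control libraries. SLC7A5 was at 634 TPM there, against 35.0 to 49.9 TPM, and SESN2 at 94.3 TPM, against 4.83 to 24 TPM. FTC-133 control cells had 1317.1 TPM of PDIA4, against 116 to 234 TPM elsewhere, and 59.5 TPM of SDF2L1, whereas 8505C and CAL-62 control cells had 7.87 and 4.47 TPM. On the levels without mitochondrial genes TPC-1 was still highest for PPP1R15A, SLC7A5 and SESN2, and FTC-133 for PDIA4 and SDF2L1. The narrowest TPM spans were 1.83-fold for EDEM1 and EIF2AK3 and 1.87-fold for DNAJB11. Without mitochondrial genes these were 3.54-fold, 3.54-fold and 2.46-fold, and the narrowest was 1.32-fold for HYOU1.

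**Figure D5:**
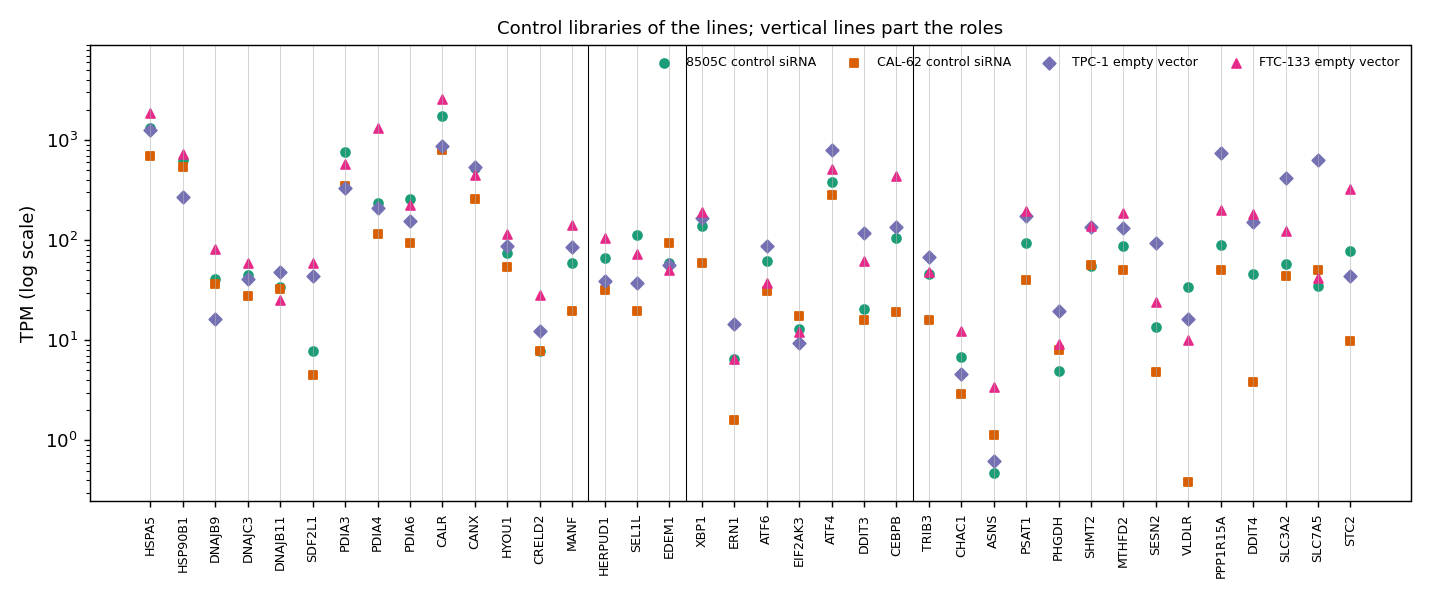
TPM on a log scale (y axis) of the 38 members (x axis, vertical lines part the roles) in the control library of each line. CAL-62 squares lie lowest for 27 members, VLDLR spans 0.385 to 33.9 TPM, and TPC-1 diamonds stand high for PPP1R15A at 746 TPM and SLC7A5 at 634 TPM.

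Other genes of the same pathways were not called either, as no gene passed in any comparison. Of 60 further genes of the unfolded protein response and secretory machinery, 59 were tested and 0 passed in any of the 4 comparisons, with unadjusted p-values under 0.05 for 4 in the siRNA, 0 in the vector, 1 in the 4-line and 1 in the effect comparison. Of 44 further genes of the integrated stress response and amino acid supply, 42 were tested and 0 passed, with 9, 4, 2 and 6 under 0.05 unadjusted in the same order. All genes had 12.0%, 4.46%, 4.09% and 9.39% under 0.05 unadjusted in that order. In the siRNA comparison, 9 of 42 in the integrated stress response list and 1 of 38 members were under 0.05 unadjusted, beside 12.0% of all genes. Whether the lists differ was not tested. The largest siRNA changes were in LAMP3, a lysosomal membrane protein, and EIF2S1, which encodes eIF2 alpha itself. LAMP3 had 84.3 TPM with NR1D1 siRNA and 15.7 TPM with control siRNA in 8505C, and 13.6 TPM with NR1D1 siRNA and 2.1 TPM with control siRNA in CAL-62, a mean log2 change of 2.29 (SE 0.31, limma adjusted p = 0.213). EIF2S1 had 62.8 TPM with NR1D1 siRNA and 161 TPM with control siRNA in 8505C, and 24.8 TPM with NR1D1 siRNA and 77.2 TPM with control siRNA in CAL-62, a mean change of -1.47 (SE 0.28, limma adjusted p = 0.246). SSR1, a subunit of the translocon-associated complex, was lower in both, with a mean change of -1.11 (SE 0.28, limma adjusted p = 0.285). ERO1A, the oxidase that supplies the disulfide isomerases, was higher in both, with a mean change of 0.84 (SE 0.27, limma adjusted p = 0.329). ATF5, a relative of ATF4, had a mean change of -1.14 (SE 0.28, limma adjusted p = 0.283).

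In the vector lines the largest differences of these lists were in secreted and amino acid genes. IGFBP1, a secreted binder of insulin-like growth factors, had 8.5 TPM with the NR1D1 vector and was listed at 0 with the empty vector in TPC-1, and had 0.592 TPM with the NR1D1 vector and 0.141 TPM with the empty vector in FTC-133. GDF15, a stress-induced cytokine, had 100 TPM with the NR1D1 vector and 18.1 TPM with the empty vector in TPC-1, and 17.1 TPM with the NR1D1 vector and 13.3 TPM with the empty vector in FTC-133. SLC1A4, a neutral amino acid transporter, had 6.21 TPM with the NR1D1 vector and 1.84 TPM with the empty vector in TPC-1, and 20.4 TPM with the NR1D1 vector and 8.85 TPM with the empty vector in FTC-133. The mean change of SLC1A4 was 1.23 (SE 0.29, limma adjusted p = 0.742). CTH, which makes cysteine from cystathionine, was higher in both vector lines, with a mean change of 1.0 (SE 0.28, limma adjusted p = 0.87). GPT2, an alanine aminotransferase, had more RNA in the library with more NR1D1 in each of the 4 lines. Its log2 ratios were -0.33, -1.45, 0.42 and 0.61, and its 4-line difference was 0.70 (SE 0.25, limma unadjusted p = 0.025, adjusted p = 0.938). How many of all genes had this order was not counted.

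Of the 38 members, 19 share exonic bases with another gene of GENCODE 29, and 5 share more than 20% (ASNS, DDIT4, DDIT3, MTHFD2 and PDIA6). The partners of DDIT4, MTHFD2 and PDIA6 are on the opposite strand and were low: DDIT4-AS1 was at 0 in all 8 libraries, SLC4A5 at or under 0.999 TPM and ATP6V1C2 at or under 2.67 TPM. Whether counting used strand was not given. Reads in shared bases may therefore be missing from both genes, which a low partner level does not settle. Processed pseudogenes of members such as ATF4 and HSP90B1 could also share reads, and how reads with several matches were counted was not given.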

How the data were processed

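Gene expression was measured by RNA-seq in 8 libraries of 4 cell lines, 1 library per group. RNA was extracted with Trizol, per the labels. The submitters' processing notes name FastQC, MultiQC, Trimmomatic 0.38, featureCounts 2.0.0 and the build GRCh38. Aligner, annotation release and strand setting are, in the sources used here, not given. The deposited 8505C and CAL-62 tables hold TPM and sum to 1000000. The deposited TPC-1 and FTC-133 tables are named TPM by the authors but hold FPKM, as their sums and gene lengths show, and were rescaled to 1000000. Of 58884 identifiers, 58472 had a symbol and 58611 were in GENCODE 29.

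Read numbers were recovered as level times exon length. Of values of 1 to 10 reads, 92.7% to 93.7% were whole within 0.02, too few for a count model, so recovered reads served for 95% counting intervals only, and these cover counting error only.

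limma 3.58.1 in R 4.3.3 was fitted to log2(TPM + 1) for the 17595 genes whose mean over 8 libraries reached 1 TPM, with a term for cell line, a trend in the prior spread and Benjamini-Hochberg adjustment at 0.05. Fold changes on this scale understate the change of low genes. The siRNA, vector and effect comparisons had 2 residual degrees of freedom and the 4-line comparison 3. Lines were the observations. In the siRNA, vector and effect comparisons, each gene had a single spread, estimated from the siRNA and vector pairs together. In every comparison this spread was moderated towards a trend over all genes. A p-value therefore does not measure the disagreement of the 2 lines of its own approach alone. The pairing of libraries comes from the shared cell line. Within a line, log2 ratios had no test, and 2-fold members were counted where the mean of the pair reached 1 TPM. The members and all gene lists were chosen with earlier results of these data known. Members named with all their values were the 5 with the largest ratio in each line, those at least 0.3 in size and of 1 sign in both lines of an approach, and all sensors and transcription factors. Further members were named after their values were seen: HSPA5, SESN2 and those given by ratio alone. Alternatives were another pseudocount, other filters, other scalings, no line term, no trend and each line left out. The scaling of control levels without mitochondrial genes was added after seeing the data.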

Additional observations from a re-analysis of the deposited data

Results flagged for a closer look

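The following members had ratios of opposite sign in the lines of an approach, each at least 0.3 in size. With 1 library per group the differences between lines were not tested. For the siRNA, the log2 ratio in 8505C minus that in CAL-62 was 1.80 for PHGDH, 1.47 for TRIB3, 1.37 for PSAT1, 1.26 for SLC3A2 and 1.10 for SLC7A5. All 5 are ATF4 targets, higher with NR1D1 siRNA in 8505C and lower in CAL-62, where the ratios stayed below 0 without mitochondrial genes (PHGDH -0.09, TRIB3 -0.06, PSAT1 -0.48, SLC3A2 -0.03 and SLC7A5 -0.12). Of these only PSAT1 was then still at least 0.3 in size.

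For the vector, the log2 ratio in TPC-1 minus that in FTC-133 was -2.08 for DDIT3, -1.27 for SLC3A2, -1.25 for SESN2, -0.97 for ATF4, -0.73 for DNAJB11 and 1.17 for DNAJB9. DNAJB9 was the member of these 6 that was higher in TPC-1.

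CANX and ATF6 were lower in the treated library of all 4 lines, which is opposite by NR1D1 between the siRNA and vector lines. Their median log2 ratios over the lines were -0.36 and -0.22. Their siRNA effects turned towards more NR1D1 minus their vector effects were 0.76 for CANX (limma adjusted p = 0.564) and 0.59 for ATF6 (limma adjusted p = 0.616), so the difference did not pass. ATF6 in CAL-62 was above 0 after trimmed mean rescaling (0.16) and without mitochondrial genes (0.25).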

How the results depend on the processing

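The number of members called was 0 in all 4 comparisons under every alternative: pseudocount 0.1, a mean TPM of at least 5, no filter, both rescalings, no replicate block (0 members, no term for cell line), no trend and each line left out. The smallest adjusted p of a member over these was 0.124 for the siRNA, 0.224 for the vector, 0.767 for the 4-line and 0.323 for the effect comparison (limma). MTHFD2 in the siRNA comparison ranged from -1.92 to -0.67 (adjusted p 0.124 to 1), and STC2 in the vector comparison from -1.66 to -1.19 (0.224 to 1). The vector change of DDIT4 ranged from 1.05 to 1.32 and that of HERPUD1 from 0.40 to 1.02.

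The CAL-62 medians depended on the scale. Trimmed mean rescaling, which moved the median gene by 0.28, gave 0.49 for chaperones, -0.10 for degradation genes, 0.16 for sensors and transcription factors and -0.19 for ATF4 targets. Leaving out mitochondrial genes, which moved it by 0.39, gave 0.59, -0.01, 0.25 and -0.12 in that order. On both scales 7 members changed sign in CAL-62 (DNAJB11, SDF2L1, SEL1L, XBP1, ATF6, DDIT3 and DDIT4). The sensors were then 5 higher and 2 lower, against 2 higher and 5 lower before. Trimmed mean rescaling left 1 member past 2-fold in 8505C. Without mitochondrial genes CAL-62 had 3 members past 2-fold, of which VLDLR was higher (1.32) and the other 2 were lower. Pseudocount 0.1 gave 6 such members in TPC-1, with ASNS at 1.25. Without mitochondrial genes the members lowest in a control library numbered 9 in 8505C, 13 in CAL-62, 12 in TPC-1 and 4 in FTC-133.

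With 1 library per group, depth limits CHAC1, ASNS, SDF2L1 and, in CAL-62, VLDLR and DDIT4.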
